A study of Mus musculus with 24 samples.

Results

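The genes described here mark the 2-cell-like state of mouse embryonic stem cells (mESCs). They are the 9 genes Zscan4c, Zscan4d, Zscan4f, Tcstv1, Tcstv3, Zfp352, Usp17lc, Dppa2 and Dppa4, picked by symbol out of 35591 genes in the table of raw counts. Poly(A) RNA was sequenced in 24 libraries from 6 male mESC lines, each sampled on 4 days of differentiation towards neuromesodermal progenitors (NMPs), the precursors of spinal cord and trunk mesoderm. The 8 groups, one for each genotype and day, held 3 lines each. The wild-type (wt) lines are labelled Smchd1[fl/+], with a floxed but undeleted allele, and the heterozygous (het) lines Smchd1[del/+]. Both came from separate blastocysts of a cross between a Castaneus (Cast) mother with intact Smchd1 and a C57BL/6 father that was Smchd1 del/fl and carried the MMTV-Cre transgene, so that the deleted or floxed allele was paternal in every line and the oocyte supplied Smchd1 to all 6. Day 0 cells were grown in serum with LIF after 2i, day 2 cells had been in N2B27 with bFGF, day 2.5 cells had received the Wnt activator CHIR99021 for 12 h, and day 3 cells are the NMP-like end point. The question put to the genotypes was whether deletion of 1 of the 2 Smchd1 copies in these cells alters expression.

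In an mESC culture, a small and changing fraction of cells switches on transcripts that are otherwise typical of the 2-cell embryo, when the mouse genome is first transcribed in earnest. The homeobox factor Dux turns on much of this programme, including the Zscan4 genes, which encode zinc finger proteins with a SCAN domain that act in telomere maintenance and genome stability. Dppa2 and Dppa4 encode a pair of SAP-domain proteins of pluripotent cells that bind DNA together, act upstream of Dux and are present in most mESCs, not in the 2-cell-like cells alone. Tcstv1 and Tcstv3 encode small proteins of the 2-cell embryo that have been tied to telomere length, Zfp352 encodes a zinc finger protein of the early embryo, and Usp17lc belongs to a family of deubiquitinating enzymes.

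Zscan4c, Zscan4d and Zscan4f are neighbouring copies on chromosome 7, and the stretch below is shown because it is where their coding sequences differ most within the length of 1 read. It covers coding bases 1046 to 1120 of each GENCODE vM21 transcript, and capitals mark the 8 positions at which the copies are not all the same.
Zscan4c: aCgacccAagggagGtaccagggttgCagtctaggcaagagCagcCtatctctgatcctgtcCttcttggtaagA
Zscan4d: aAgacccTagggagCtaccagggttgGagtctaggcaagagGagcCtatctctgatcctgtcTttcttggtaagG
Zscan4f: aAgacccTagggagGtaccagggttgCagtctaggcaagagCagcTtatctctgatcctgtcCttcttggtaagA
The coding sequences of the 3 copies were each 1518 bases long. Zscan4c and Zscan4f differed at 6 bases, and Zscan4d differed from either at 35. Of the 1444 windows of 75 bases, 399 (27.6%) were identical in all 3, so a read that falls there cannot be given to a single copy.

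The promoters of these copies were also nearly the same. Over 266 bases that could be set side by side without gaps in the RefSeq table (GRCm38.p6), Zscan4c and Zscan4f differed at 2 bases and Zscan4d differed from each at 7. The 120 bases around a TATAAAA motif are printed for the 3 copies, with capitals where they are not all the same. They lie at chr7:11005631-11005750 on the plus strand for Zscan4c, chr7:11166154-11166273 on the minus strand for Zscan4d and chr7:11397824-11397943 on the plus strand for Zscan4f.
Zscan4c: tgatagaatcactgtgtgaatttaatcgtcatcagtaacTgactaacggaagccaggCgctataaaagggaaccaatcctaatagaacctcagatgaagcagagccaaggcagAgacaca
Zscan4d: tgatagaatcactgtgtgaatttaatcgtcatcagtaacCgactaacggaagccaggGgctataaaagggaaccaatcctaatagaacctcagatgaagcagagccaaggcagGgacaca
Zscan4f: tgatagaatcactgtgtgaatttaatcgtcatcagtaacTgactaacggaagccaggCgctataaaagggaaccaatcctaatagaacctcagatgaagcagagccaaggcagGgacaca
Usp17lc, which is no relative of Zscan4, held the same 7 letters in its own promoter, shown in capitals in 60 bases at chr7:103416578-103416637 on the plus strand.
Usp17lc: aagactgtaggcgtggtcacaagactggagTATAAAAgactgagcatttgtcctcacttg
The table held promoters for 5 members, the fifth being Zfp352, whose promoter did not have these letters. TATAAAA stood 54 bases before the RefSeq start of Zscan4c, 65 before that of Zscan4d, 31 before that of Zscan4f and 88 before that of Usp17lc, always on the strand of the gene. Over both strands, it was found in 5.48% of the 32851 promoters of this length. The Dux motif was in 0.0335% of promoters and the Zscan4 motif TGCACAC in 4.40%, over both strands, and 0 of the 5 members' promoters held either one. Tcstv1, Tcstv3, Dppa2 and Dppa4 were not matched in the promoter table.

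All 9 members are annotated as protein coding, and their exons overlap those of no other gene (GRCm38). Dppa2 (ENSMUSG00000072419, chr16:48303908-48319723) and Dppa4 (ENSMUSG00000058550, chr16:48283733-48294237) are adjacent. Zscan4c (ENSMUSG00000054272, chr7:11005745-11010547), Zscan4d (ENSMUSG00000090714, chr7:11161374-11166159) and Zscan4f (ENSMUSG00000070828, chr7:11397915-11402318) share chromosome 7 with Usp17lc (ENSMUSG00000058976, chr7:103415072-103419880). Tcstv1 (ENSMUSG00000096284, chr13:119893388-119894785) and Tcstv3 (ENSMUSG00000095821, chr13:120316878-120318178) are on chromosome 13, and Zfp352 (ENSMUSG00000070902, chr4:90218820-90225702) is on chromosome 4. As a guide to how well reads can be placed, the 75-base stretches of each member's longest transcript were looked up in the transcripts of all other genes. The share found in no other gene was 7.58% for Zscan4f, 21.4% for Zscan4c and 60.5% for Zscan4d. It was 64.3% for Usp17lc, which shared most with Usp17ld, 74.3% for Dppa2 and 76.3% for Dppa4, which shared theirs mostly with genes that have no name beyond a Gm number. Tcstv3 reached 85.7%, Tcstv1 92.1% and Zfp352 97.1%. How reads with several possible positions were counted is not given in the sources used here, so values of single Zscan4 copies are uncertain, and those of Usp17lc less so. The cells are also Cast by C57BL/6 hybrids whose reads were aligned to the C57BL/6 reference, and the effect of this on multicopy genes was not tested.

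**Figure D1:**
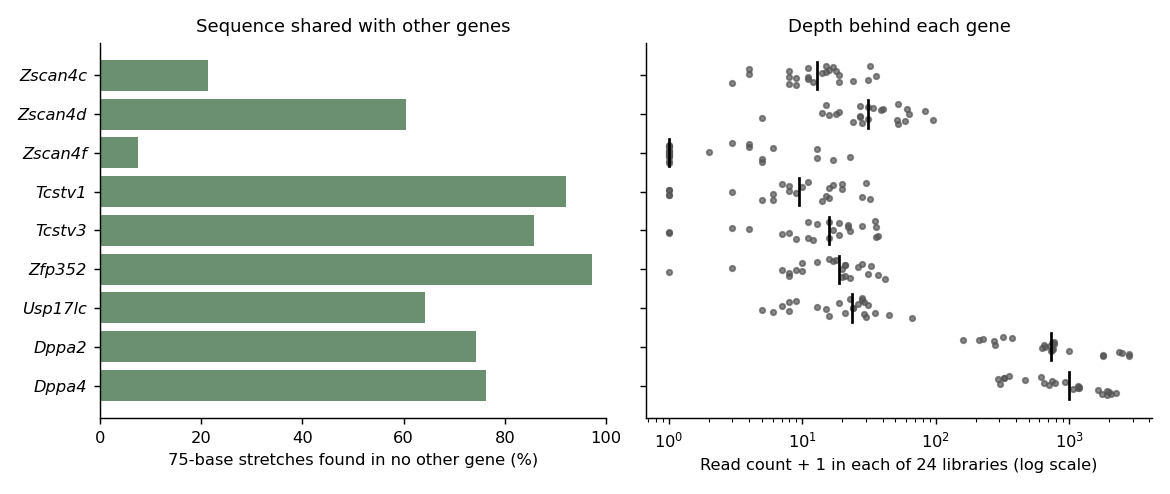
The left panel shows, as bars, the percentage of each gene's 75-base stretches that occur in no other annotated gene, and the right panel shows the read count plus 1 in each of the 24 libraries on a log scale, with a black bar at the median. Zscan4f had both the smallest unique share (7.58%) and a median count of 0, while Dppa2 and Dppa4 had at least 160 counts in every library.

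Library totals ranged from 7.10 to 20.8 M (mega) counts, with a median of 17.9 M, and the smallest was wt line 2 at day 2.5. Levels are given as counts per M counts (CPM) scaled by trimmed mean of M-values (TMM) factors. A count of 3, taken as the floor, is worth 0.414 CPM in the smallest library and 0.138 CPM in the largest. This floor, like every interval below, covers counting error alone. Smchd1 stood at 142 ± 9.69 CPM for wt and 94.4 ± 6.01 CPM for het at day 0 (SD, n = 3), and on each of the 4 days all het lines were below all wt lines, as labelled. The 11 markers of naive pluripotency fixed for the check, such as Esrrb and Nanog, summed to 1536 to 1762 CPM over the 6 lines at day 0 and to 193 to 302 CPM over all later libraries. NMP markers summed to 3.06 to 9.55 CPM up to day 2 and to 458 to 1321 CPM afterwards. The 10 primitive endoderm markers summed to 834 to 2644 CPM over the 6 lines at day 0 and to 2853 to 10919 CPM later, mostly reads of the matrix genes Col4a1, Lama1 and Lamb1, while Foxa2 was at 0.725 to 4.55 CPM at day 0. One line stood apart for the genes reported here. Of 28 values (7 members other than Dppa2 and Dppa4, on 4 days), wt line 1 was the highest of the wt lines in 22, and at day 2 it was so for all 7. In counts summed per line, the 799 genes of chromosome 8 that averaged at least 50 counts were shifted upwards in wt line 1 by a median of 0.23 (log2 ratio to the other lines), and the largest median of any line on another autosome or the X was 0.06 in size. No member lies on chromosome 8.

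Dppa2 and Dppa4 were well covered, with 160 to 2831 counts for Dppa2 and 292 to 2240 for Dppa4 in each library, and the other 7 members were sparse. Per kilobase (kb) of exon, Dppa4 averaged 38.2 CPM and Dppa2 24.5 CPM over the 24 libraries. The next in order were Tcstv3 with 1.16 CPM per kb, Zscan4d with 0.933, Usp17lc with 0.516, Zfp352 with 0.434, Tcstv1 with 0.432, Zscan4c with 0.339 and Zscan4f with 0.0970. In each of the 8 groups Dppa4 and Dppa2 came first and second, and their ranges over lines did not overlap in any group. The order among the remaining 7 was not settled, because neighbours in it overlapped in 42 of 48 cases. In whole counts, Zscan4d had 4 to 95 per library, Usp17lc 4 to 65, Zfp352 0 to 41, Tcstv3 0 to 36, Zscan4c 2 to 35, Tcstv1 0 to 31 and Zscan4f 0 to 22. Zscan4f was at 0 in 13 of 24 libraries, Tcstv1 in 4, Tcstv3 in 2 and Zfp352 in 1. Because these are bulk samples, fewer cells in the 2-cell-like state and less RNA per such cell cannot be told apart.

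**Figure D2:**
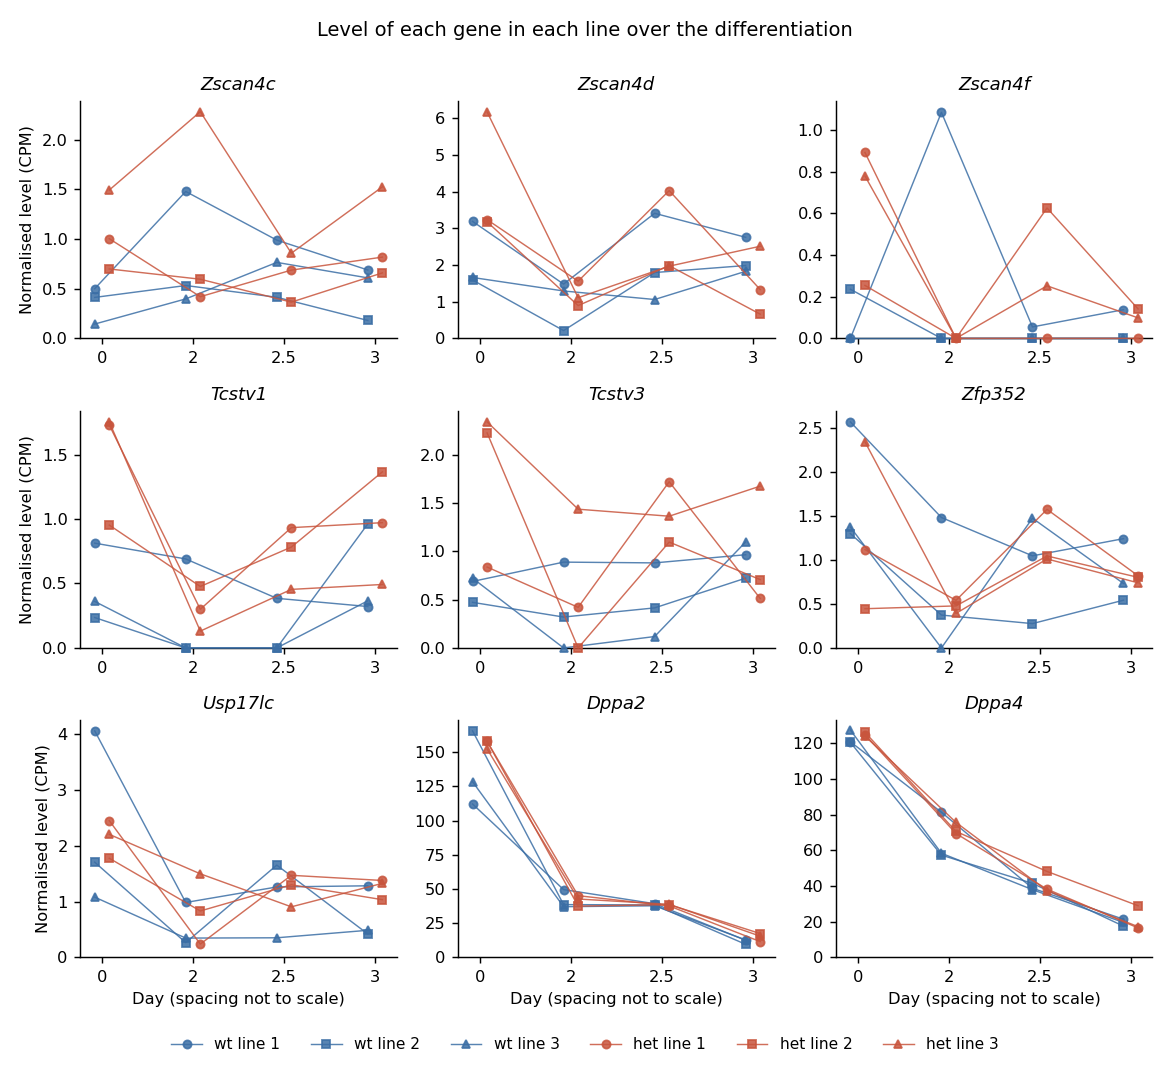
Each panel shows the normalised level of one gene in CPM (y axis, from 0) on days 0, 2, 2.5 and 3, with 1 line joining the 4 libraries of each cell line, wt in blue and het in red. Dppa2 and Dppa4 were lower at day 3 than at day 0 in all 6 lines, whereas the other 7 genes stayed at or below 6.17 CPM, with lines that crossed.

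The regulators Dppa2 and Dppa4 fell from day 0 to day 3, in all 6 lines. At day 0, Dppa2 stood at 112, 166 and 128 CPM for wt lines 1, 2 and 3 and at 158, 158 and 152 CPM for het lines 1, 2 and 3. At day 3 it was at 12.6, 9.63 and 12.8 CPM for wt and 11.6, 17.5 and 15.6 CPM for het, which left 5.81% to 11.2% of each line's day 0 level. The lowest line of day 0 was far above the highest of day 3. Dppa4 stood at 121, 121 and 128 CPM for wt and 125, 126 and 124 CPM for het at day 0, all 6 within a narrow range. At day 3 it had 21.4, 17.6 and 19.6 CPM for wt and 16.6, 29.0 and 17.3 CPM for het, or 13.3% to 23.0% of day 0. Het line 2 was the highest of day 3 for both genes.

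The steps of the pair were not of the same size, though the difference between the genes was given no test. Between day 0 and day 2, Dppa2 had log2 fold changes of -1.69 (SE 0.16, adjusted p 1.52e-06) in wt and -1.89 (SE 0.08, adjusted p 8.1e-11) in het by the edgeR quasi-likelihood test. Those of Dppa4 were -0.90 (SE 0.14, adjusted p 0.000118) in wt and -0.79 (SE 0.07, adjusted p 2.61e-07) in het. In the 12 h after Wnt activation, Dppa2 held at 39.3, 38.4 and 37.8 CPM for wt and 37.7, 38.7 and 38.9 CPM for het, against 49.6, 38.7 and 37.1 CPM for wt and 45.2, 37.5 and 42.7 CPM for het at day 2. The groups overlapped, and the log2 change came to -0.12 (SE 0.16, adjusted p 0.595) in wt and -0.14 (SE 0.11, adjusted p 0.32) in het. Dppa4 went from 81.4, 57.4 and 58.5 to 38.8, 41.6 and 38.0 CPM for wt over the same step. In het it went from 69.5, 70.7 and 75.8 to 38.3, 48.3 and 37.4 CPM. This fall passed the test in both genotypes, at -0.74 (SE 0.16, adjusted p 0.00409) in wt and -0.82 (SE 0.12, adjusted p 7.17e-05) in het. From day 2.5 to day 3 both genes fell, with log2 fold changes of -1.72 (SE 0.16, adjusted p 0.000271) in wt and -1.39 (SE 0.14, adjusted p 9.3e-05) in het for Dppa2 and of -1.01 (SE 0.14, adjusted p 0.00165) in wt and -1.0 (SE 0.20, adjusted p 0.00308) in het for Dppa4. Without wt line 2, the call for Dppa4 in wt at this step was lost (-0.91, adjusted p 0.0739). That line's day 2.5 library is the smallest.

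The ratio of Dppa2 to Dppa4, in CPM per kb, sets both courses side by side within each line. It was 0.630 to 0.933 over the 6 lines at day 0 and 0.361 to 0.457 at day 2. At day 2.5 it was 0.544 to 0.706, and at day 3 it was 0.372 to 0.611. In all 6 lines the ratio went down, then up, then down over the 3 steps. This summary was chosen after its values were seen and was given no test.

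**Figure D3:**
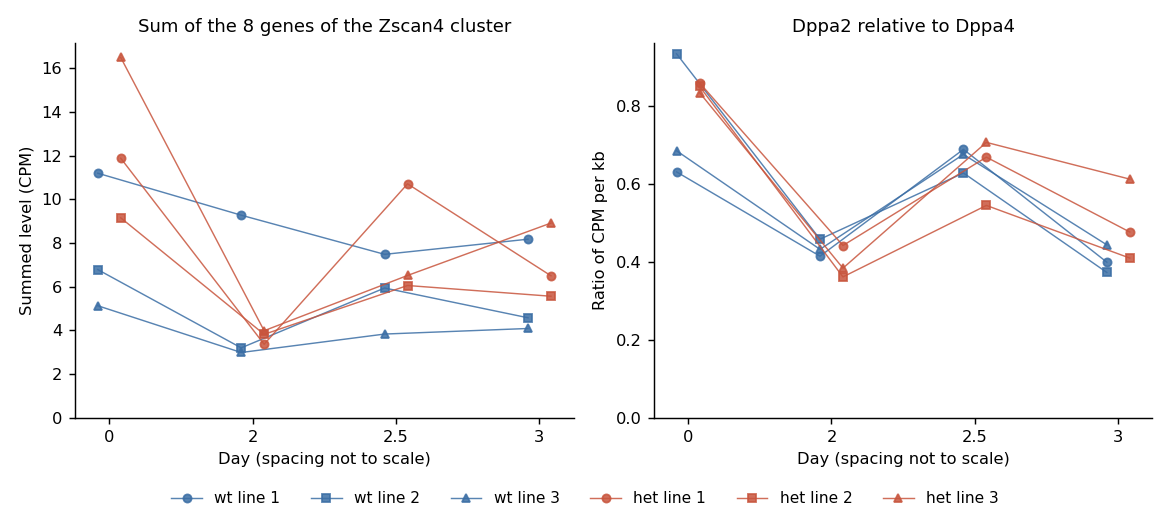
On the left, the y axis gives the summed level in CPM of the 8 genes of the Zscan4 cluster in the count table, and on the right the ratio of Dppa2 to Dppa4 in CPM per kb, both by day with 1 line per cell line. The 3 het lines came together at day 2 on the left, between 3.36 and 3.98 CPM, and all 6 lines on the right rose between day 2 and day 2.5.

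Among the Zscan4 copies, Zscan4d had the most reads and the clearest course. At day 0 it stood at 3.19, 1.59 and 1.66 CPM for wt and 3.24, 3.18 and 6.17 CPM for het. At day 2 it was at 1.48, 0.213 and 1.29 CPM for wt and 1.56, 0.894 and 1.11 CPM for het, so that every line was lower than it had been and neither genotype's days overlapped. The fall was called in het, at -1.80 (SE 0.45, adjusted p 0.00288), and not in wt, at -1.10 (SE 0.74, adjusted p 0.25). Their difference was tested by the interaction of genotype and day, which gave -0.70 (SE 0.84, adjusted p 0.927). Leaving out het line 3, the highest at day 0, the het value was -1.37 with an adjusted p of 0.0545. At day 2.5 it was at 3.41, 1.79 and 1.06 CPM for wt and 4.03, 1.98 and 1.97 CPM for het. All 3 het lines were above their day 2 range, with a change of 1.14 (SE 0.51, adjusted p 0.0816), against 1.07 (SE 0.71, adjusted p 0.286) in wt. At day 3, the levels were 2.76, 1.99 and 1.83 CPM for wt and 1.33, 0.660 and 2.51 CPM for het.

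Zscan4c did not follow Zscan4d. It stood at 0.50, 0.413 and 0.144 CPM for wt and 1.0, 0.699 and 1.49 CPM for het at day 0, and at 1.48, 0.532 and 0.398 CPM for wt and 0.420, 0.596 and 2.28 CPM for het at day 2. It was higher at day 2 than at day 0 in all 3 wt lines and in het line 3, and lower in the other two. The het change was 0.04 (SE 0.71, adjusted p 0.965), and in wt the counts, of 2 to 8 at day 0, did not pass the filter. Zscan4c was at 0.990, 0.414 and 0.765 CPM for wt and 0.688, 0.365 and 0.858 CPM for het at day 2.5, and at 0.689, 0.181 and 0.609 CPM for wt and 0.819, 0.660 and 1.53 CPM for het at day 3.

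Zscan4f came and went in single libraries. Its counts were 0, 4 and 0 in wt and 16, 4 and 12 in het at day 0. At day 2 they were 22, 0 and 0 in wt and 0, 0 and 0 in het, so that wt line 1 alone accounted for all reads of the day. In het, with 32 counts at day 0 against 0 at day 2, the pooled day 0 level was 10.6 times a floor of 3 counts set over the day 2 group. The counting error of the 32 and the spread over lines are left out of this value, so it is no lower limit. The gene did not pass the filter in this comparison and was called lower wherever an alternative let it in, with adjusted p of 0.00336 to 0.0211 over 4 alternatives. At day 2.5 its counts were 1, 0 and 0 in wt and 0, 12 and 5 in het, and at day 3 they were 3, 0 and 0 in wt and 0, 3 and 2 in het, at or under the floor of 3 in each library.

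Since reads can move between copies, the summed level of the 8 Zscan4 genes and pseudogenes in the table is given as well. The sum too depends on how reads with several possible positions were counted. Of 2919 counts in all libraries, Zscan4d held 30.4%, Zscan4-ps3 19.3%, Zscan4c 11.3% and Zscan4f 2.88%. The sum was 11.2, 6.78 and 5.12 CPM for wt lines 1, 2 and 3 and 11.9, 9.15 and 16.5 CPM for het at day 0, so that the genotypes overlapped. At day 2 it was 9.27, 3.19 and 2.98 CPM for wt and 3.36, 3.81 and 3.98 CPM for het. It was lower than at day 0 in each of the 6 lines. At day 2.5 the sum was 7.48, 5.94 and 3.83 CPM for wt and 10.7, 6.05 and 6.51 CPM for het, higher than at day 2 in every line but wt line 1. At day 3 it was 8.17, 4.57 and 4.08 CPM for wt and 6.50, 5.56 and 8.91 CPM for het.

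Tcstv1 and Tcstv3, with mostly unique sequence, also reached their lowest levels at day 2 in het. Tcstv1 stood at 0.813, 0.236 and 0.361 CPM for wt and 1.73, 0.953 and 1.75 CPM for het at day 0, and at 0.691, 0 and 0 CPM for wt and 0.300, 0.477 and 0.130 CPM for het at day 2. The het lines did not overlap between these days, and the fall was called at -2.24 (SE 0.71, adjusted p 0.0141). Without het line 1 the adjusted p was 0.107, and without het line 3 it was 0.104. In wt the gene did not pass the filter, and 2 of the 3 lines had no read at day 2 or day 2.5. At day 3, Tcstv1 was at 0.321, 0.963 and 0.366 CPM for wt and 0.972, 1.37 and 0.492 CPM for het. Tcstv3 stood at 0.688, 0.472 and 0.722 CPM for wt and 0.837, 2.22 and 2.34 CPM for het at day 0 and at 0.888, 0.319 and 0 CPM for wt and 0.420, 0 and 1.44 CPM for het at day 2. It was lower in all 3 het lines, but the change of -1.54 (SE 0.87, adjusted p 0.149) was not called.

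Zfp352 and Usp17lc had their highest mean at day 0 in both genotypes. Zfp352 stood at 2.56, 1.30 and 1.37 CPM for wt and 1.12, 0.445 and 2.34 CPM for het at day 0, and at 1.48, 0.373 and 0 CPM for wt and 0.540, 0.477 and 0.391 CPM for het at day 2. All 3 wt lines were lower at day 2, and the log2 change of -1.48 (SE 1.01, adjusted p 0.255) was not called. At day 2.5 it was at 1.04, 0.276 and 1.47 CPM for wt and 1.57, 1.04 and 1.01 CPM for het, and the 3 het lines were all above their range of day 2, by 1.33 (SE 0.65, adjusted p 0.111). Usp17lc stood at 4.07, 1.71 and 1.08 CPM for wt and 2.46, 1.78 and 2.21 CPM for het at day 0, and at 0.987, 0.266 and 0.348 CPM for wt and 0.240, 0.834 and 1.5 CPM for het at day 2. All 6 lines were lower, without overlap in either genotype. The change was called in wt, at -2.08 (SE 0.80, adjusted p 0.0476), and not in het, at -1.32 (SE 0.63, adjusted p 0.0888). With the line as a replicate block, the wt value was -2.09 with an adjusted p of 0.0564, with library totals alone it was -2.04 with an adjusted p of 0.0529, and with any one wt line left out the adjusted p was 0.0603 to 0.153. Its interaction of genotype and day was 0.78 (SE 1.03, adjusted p 0.937).

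Counted over the members, 3 of the 6 that passed the filter in wt and 4 of the 7 in het were lower at day 2 than at day 0, and 0 were higher. Among all genes tested in the same fits, 21.9% were called lower in wt and 28.1% in het, and 22.4% and 28% were called higher. Without het line 3 the het count was 2, Dppa2 and Dppa4 alone. Those that passed are not all members, and the filter bears on these counts. Zscan4d, Zfp352 and Usp17lc in wt and Zscan4c, Tcstv1, Tcstv3 and Usp17lc in het reached its level in all 3 lines at day 0 and not at day 2, so they passed through day 0, the day with their higher mean for all of these but Zscan4c. Of the members called lower, this leaves Dppa2 and Dppa4 in wt and these with Zscan4d in het as those that reached it in all lines of both days. From day 2 to day 2.5, 1 of 6 tested members in wt and 1 of 7 in het was lower, which was Dppa4 each time. The share of all genes lower was 14.5% in wt and 22.9% in het, and the share higher, with 0 members, was 14.6% and 21.8%. From day 2.5 to day 3, Dppa2 and Dppa4 were lower in both genotypes, 2 of 7 tested members in wt and 2 of 8 in het. The background was 10.1% and 16%. The day 2 libraries enter both of the first 2 steps and the day 2.5 libraries both of the last 2, so that a low day 2 group adds to a fall and a rise alike.

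**Figure D4:**
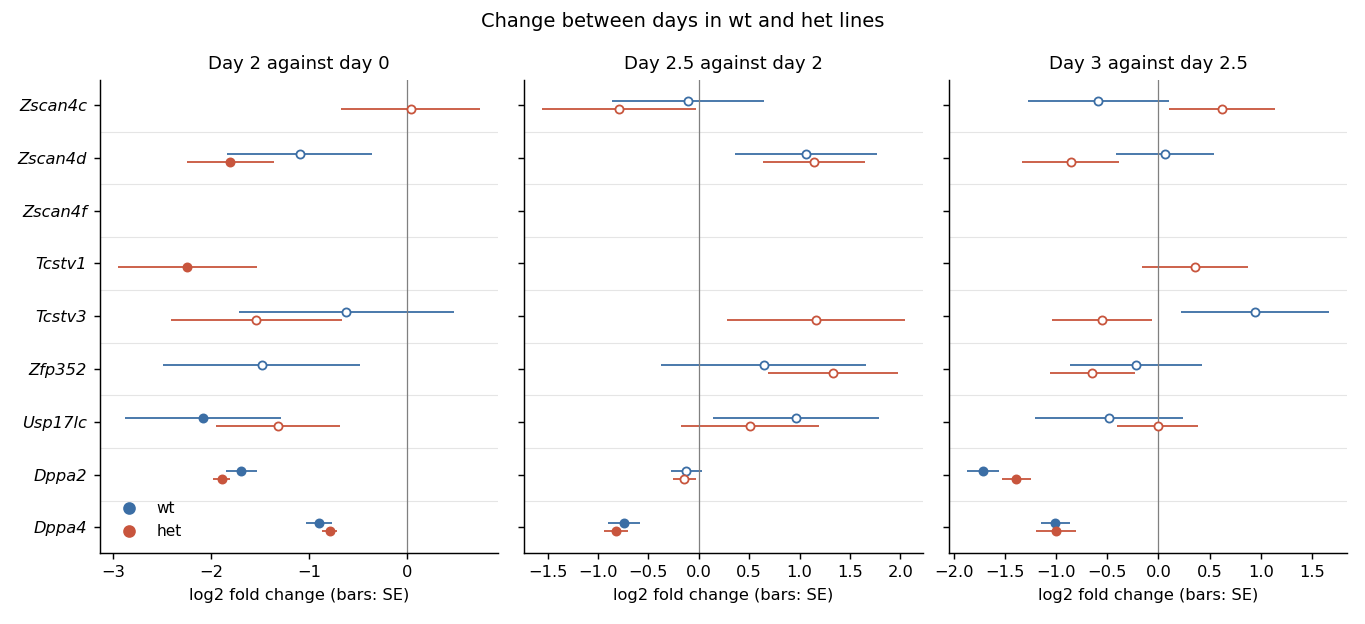
Points give the log2 fold change of each gene (x axis) between consecutive days in wt (blue) and het (red) lines, bars give the SE, and filled points are called at an adjusted p under 0.05. Genes without a point did not pass the filter. Dppa2 and Dppa4 carry short bars, at most 0.20, and the other genes carry bars of 0.40 to 1.10.

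Het lines had more reads than wt lines for several members at day 0, and no difference was called on any day. At day 0, Zscan4c, Zscan4f, Tcstv1 and Tcstv3, that is 4 of the 9 members, had all 3 het lines above all 3 wt lines. Such a separation with het higher was found in 9.4% of all genes tested. Zscan4f did not pass the filter and the other 3 passed it through the het lines, so 4 of 9 cannot be read against that share. For Zscan4f, wt line 2 and het line 2 had 4 counts each, and the separation rests on their library totals. The log2 fold changes were 1.54 (SE 0.72, adjusted p 0.462) for Zscan4c, 1.62 (SE 0.67, adjusted p 0.416) for Tcstv1 and 1.49 (SE 0.61, adjusted p 0.414) for Tcstv3. Zscan4d overlapped, at 0.94 (SE 0.41, adjusted p 0.444), and so did the sum of the 8 Zscan4 genes. An unadjusted p under 0.05 was reached by 3 of 8 tested members (Zscan4d, Tcstv1 and Tcstv3) and by 10.9% of all genes, while 0% of genes were called. Zscan4c, Tcstv1 and Tcstv3 reached the level of the filter in all 3 het lines and not in all wt lines, so they were tested through the group in which they are high, and their count cannot be read against that share. DESeq2 gave an adjusted p to 2 members at day 0 and called neither, while it called 1.07% of the genes with an adjusted p.

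The separation at day 0 did not extend to Zfp352, at -0.45 (SE 0.63, adjusted p 0.823), or to Usp17lc, at -0.12 (SE 0.50, adjusted p 0.947). The 2 regulators overlapped too, with 0.19 (SE 0.11, adjusted p 0.547) for Dppa2 and 0.01 (SE 0.07, adjusted p 0.974) for Dppa4. With 1 line left out, an alternative chosen after seeing the data, separation is easier for every gene, and 12.9% to 19.8% of all genes tested separated at day 0 with het higher, depending on the line. Leaving out wt line 1, 6 of 9 members did so at day 0, namely the earlier 4 with Zscan4d and Usp17lc, against 12.9% of all genes, and leaving out each other line gave 4 or 5. All of these counts hold the earlier 4, so they cannot be read against the shares either. Without het line 3, Zfp352 separated with het lower, as did 10.1% of all genes, though it had passed the filter through the wt lines. Markers of other cell types differed between the genotypes too. Of 10 primitive endoderm markers, 6 had all wt lines above all het lines at day 0 and 9 at day 2, and 0 were separated at day 2.5 or day 3, with no test made. Their sum was 1453 to 2644 CPM for wt and 834 to 1226 CPM for het at day 0, and 5215 to 10919 CPM and 3234 to 4480 CPM at day 2, with 10 of 10 markers in the table and 0 of them at 0 in any group. The 6 trophoblast markers summed to 222 to 232 CPM for wt and 177 to 199 CPM for het at day 0, to 161 to 179.8 CPM and 125 to 158 CPM at day 2, and, with het the higher, to 187 to 207 CPM and 210.1 to 279 CPM at day 3. They overlapped at day 2.5. The sum is mostly Krt8, and of the 6 markers 3 separated with wt higher at day 0 (Hand1, Krt7 and Krt8), 1 at day 2 (Hand1) and 2 with het higher at day 3 (Elf5 and Krt7). The 4 germ cell markers summed to 154 to 207 CPM for wt and 224 to 261 CPM for het at day 2 and overlapped on the other days. Mael and Sycp3 separated at day 2 with het higher, as Sycp3 did at day 0 (8.82 to 9.67 CPM for wt and 12.6 to 14.9 CPM for het), and Ddx4 and Dazl separated on no day. None of the trophoblast and germ cell markers was at 0 in all lines of a group. Of all genes tested, 7.27%, 7.91%, 5.2% and 5.62% separated with wt higher on days 0, 2, 2.5 and 3. With het higher, the shares were 9.4%, 8.08%, 6.15% and 8.29%. Among naive markers, Klf4, Klf5 and Tbx3 separated at day 2 with wt higher, and Tfcp2l1 at day 0 and Esrrb at day 2 with het higher. Het was also higher for the NMP markers Wnt3a at day 0 and Cdx2 at day 2. The same held at day 3 for Fgf5 and Pou3f1, markers of formative and primed cells. The part of all these markers in the differences of the members was not tested.

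On later days fewer members separated. Several of those that did had not passed the filter or had passed it through the het lines. Counts that hold such members cannot be read against the shares of genes tested. At day 2, 0 of 9 members separated with het higher (8.08% of all genes did), and none of the 5 tested was called, against 0.551% of all genes. An unadjusted p under 0.05 was reached by 0 of the 5, against 10.2% of all genes. Without wt line 1, Tcstv1, Zfp352 and Dppa4 separated at day 2 with het higher, as did 13.9% of all genes tested, and without any one of the other lines 0 members separated. At day 2.5, Tcstv1 and Tcstv3 separated with het higher, against 6.15% of all genes. This count cannot be read against the share, since Tcstv1 did not pass the filter and Tcstv3 passed it through the het lines. Tcstv1 was at 0.385, 0 and 0 CPM for wt and 0.933, 0.783 and 0.454 CPM for het and was not tested. Tcstv3 was at 0.880, 0.414 and 0.118 CPM for wt and 1.72, 1.10 and 1.36 CPM for het, a difference of 1.53 (SE 0.65, adjusted p 0.907). Of 7 tested members, 1 had an unadjusted p under 0.05 at day 2.5, against 5.27% of all genes, a count that cannot be read against the share because the member, Tcstv3, reached the level of the filter in all 3 het lines and in 1 wt line. Leaving out each line in turn, 2 or 3 members separated with het higher, against 9.8% to 15.4% of all genes, and 0 with het lower, against 7.74% to 13.2%. At day 3, 0 members separated with het higher, where 8.29% of all genes did, and 0 of 8 tested were called, with 0.00638% of all genes called. An unadjusted p under 0.05 was reached by 0 of the 8, against 9.13% of all genes. Separation at day 3 depended on the line left out, in both directions. Without wt line 1, Zscan4c, Zfp352 and Usp17lc separated with het higher, against 18% of all genes. Without het line 3, Tcstv1 separated with het higher (11.7% of all genes) and Zscan4d and Tcstv3 with het lower (8.66%). Without het line 2, Zscan4c and Usp17lc separated with het higher (14.4%) and Dppa4 with het lower (10.4%). Leaving out any of the other 3 lines gave 0 or 1 member with het higher, against 12.1% to 13.5% of all genes, and 0 with het lower, against 9.71% or more. After summing each line's counts over its 4 days, 0 of 9 members were called and Tcstv1, at 1.30 (SE 0.46, adjusted p 0.45), and Tcstv3, at 0.96 (SE 0.38, adjusted p 0.492), separated, where 7.78% of all genes did so with het higher and 0.00544% were called. In these sums, 2 members had an unadjusted p under 0.05, against 9.05% of all genes. Dppa2 and Dppa4, the members with the reads to show a small change, differed by 0.08 (SE 0.10, adjusted p 0.861) and 0.00 (SE 0.07, adjusted p 0.998) in these sums.

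**Figure D5:**
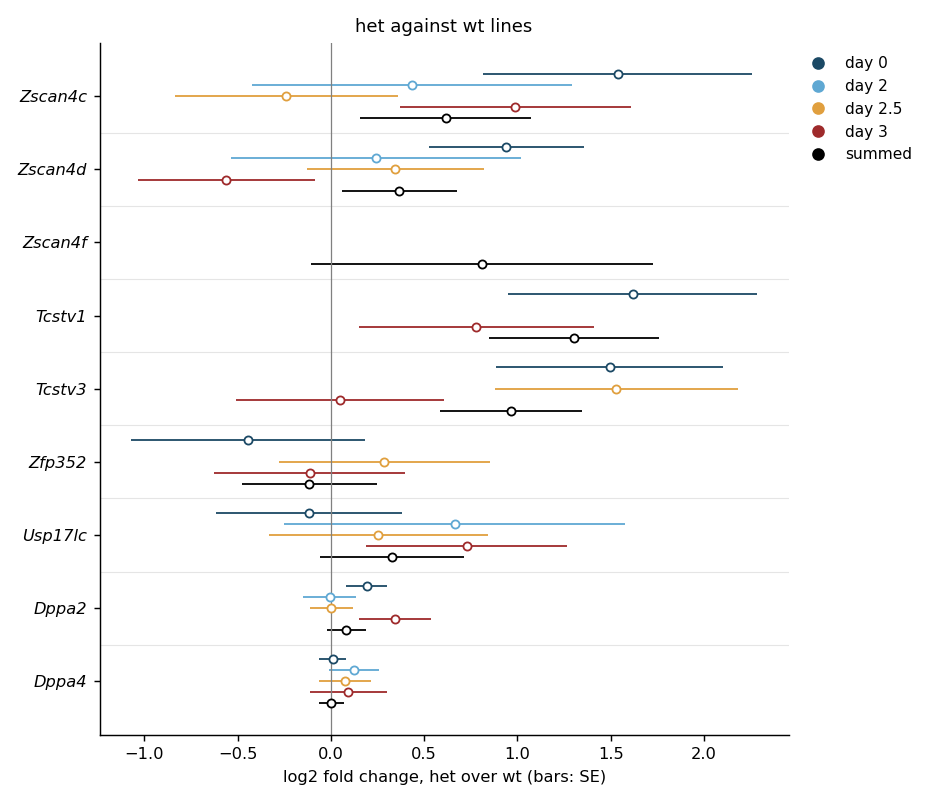
Points give the log2 fold change of het over wt lines for each gene (x axis) at day 0, 2, 2.5 and 3 and in counts summed over days, with bars for the SE. All points are open because none was called at an adjusted p under 0.05. At day 0, Zscan4c, Tcstv1 and Tcstv3 lie near 1.5 while Dppa4 lies at 0.01.

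The change between days was also compared between genotypes. No member had an interaction past the threshold at any of the 3 steps by edgeR, and 0% of all genes did. Over the 3 steps, the count of members at an unadjusted p under 0.05 was 1 of 9, 0 of 8 and 0 of 8, against 6.31%, 5.13% and 3.85% of all genes. The member was Zscan4f from day 0 to day 2 (p 0.00901, adjusted p 0.754), where wt line 1 held all of the day 2 reads. DESeq2 called 0 members in these interactions, and 0.0407%, 0% and 0% of the genes with an adjusted p.

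Levels of the members were compared with one another across libraries. Over the 24 libraries, Pearson's r of log2 CPM between Dppa2 and Dppa4 was 0.95. Among the 21 pairs of the others it was 0.16 to 0.60, with a median of 0.45. As deviations from the 8 group means, r was 0.60 between Dppa2 and Dppa4 and 0.11 to 0.58 among the others. For Dppa2 or Dppa4 with one of the other 7, r was -0.02 to 0.45 over the libraries and, as deviations, -0.12 to 0.62, the highest being that of Dppa2 with Zscan4f, above that of Dppa2 with Dppa4. The points of a line share their cells and all points share the day effects and the depth of each library. Genes most like Dppa2 and Dppa4 over the libraries were Tdgf1, the Nodal co-receptor of pluripotent cells (r 0.987), Bcat2, Rfc5, Gtsf1l and Gdf3, with r of 0.977 or more. As deviations from group means they were Kdm4c, a histone demethylase (r 0.919), Pecam1, Tet2, Calca and Dmrt1. For the mean of Zscan4c, Zscan4d and Zscan4f, the most alike genes were Elk4 (r 0.662), Ska3, Cenpu, Gm5039 and Abce1. As deviations they were Fubp1 (r 0.814), Slc25a4, Pkd1l3, Naf1 and Oard1, of which 3 of 5 lie on chromosome 8, and r fell to between 0.390 and 0.691 without wt line 1.

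Other genes of the programme were read from lists. The list of activators had 12 genes in the table, Dppa2 and Dppa4 among them. Duxf3, the Dux gene of the table, had 1 count in all 24 libraries together, so no statement on Dux can be made at this depth. Of the activators, Nelfa, which encodes a subunit of a factor that pauses RNA polymerase, was lower at day 2 at -0.34 (SE 0.12, adjusted p 0.0389) in wt and -0.40 (SE 0.09, adjusted p 0.00177) in het. With Dppa2 and Dppa4, which are on the list, 3 of 5 tested were lower in wt and 4 of 6 in het, against 21.9% and 28.1% of all genes. No activator was called higher at that step, against 22.4% and 28%. Pou2f1, an octamer-binding factor, was lower at day 2.5 than at day 2, at -0.83 (SE 0.14, adjusted p 0.00108) in wt and -0.79 (SE 0.09, adjusted p 1.5e-05) in het, and higher at day 3 than at day 2.5, at 0.76 (SE 0.13, adjusted p 0.00352) and 0.48 (SE 0.08, adjusted p 0.000989). The activator with the highest mean was Yap1, at 190.4 CPM.

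Repressors of the state were all detected. Of 27 tested, 14 were lower and 3 higher at day 2 than at day 0 in wt, and 14 were lower and 4 higher in het. Of all genes tested, 21.9% were lower and 22.4% higher in wt, and 28.1% and 28% in het. The largest decreases by adjusted p were those of Zfp42, also a naive pluripotency marker, at -3.12 (SE 0.12, adjusted p 4.46e-10) in wt and -3.04 (SE 0.08, adjusted p 2.89e-13) in het, of Trim28, the co-repressor of KRAB zinc finger proteins, at -1.92 (SE 0.08, adjusted p 1.22e-09) and -1.69 (SE 0.05, adjusted p 1.71e-12), and of L3mbtl2. From day 2 to day 2.5, 6 were lower and 5 higher in wt and 13 lower and 4 higher in het, against 14.5% and 14.6% of all genes in wt and 22.9% and 21.8% in het. Rif1 had the smallest adjusted p among them, at -0.77 (SE 0.11, adjusted p 0.000384) and -0.89 (SE 0.07, adjusted p 5.86e-07). The list also holds Smchd1, the only gene of any list called between genotypes in these fits, at -0.75 (SE 0.09, adjusted p 0.00824) on day 2 and -0.88 (SE 0.10, adjusted p 0.0307) on day 3.

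Among 40 further genes of the 2-cell stage in the table, 6 had no read in any library, and 9 to 18 passed the filter in the fits of separate days and steps. From day 0 to day 2, 2 of 14 tested were lower in wt and 6 of 15 in het, where the shares of all genes were 21.9% and 28.1%, and 0 were higher in either, where the shares were 22.4% and 28%. Sparse genes such as these can pass the filter through day 0 alone, which favours a fall, so these counts cannot be read against the shares. B020004J07Rik, a gene of the PRAME-like family, was at 1.36 ± 0.391 CPM for wt and 1.88 ± 0.890 CPM for het at day 0 and 0.0661 ± 0.0760 CPM for wt and 0.145 ± 0.128 CPM for het at day 2 (SD, n = 3), with changes of -4.20 (SE 1.08, adjusted p 0.00596) and -3.63 (SE 0.86, adjusted p 0.00201). Pramef25, the gene of this list with the highest mean, was at 4.60 ± 0.902 CPM for het at day 0, 0.647 ± 0.969 CPM at day 2 and 3.78 ± 0.812 CPM at day 2.5 (SD, n = 3). Both steps were called in het, at -2.84 (SE 0.77, adjusted p 0.00551) and 2.55 (SE 0.82, adjusted p 0.021). The het lines ranged from 0 to 1.76 CPM at day 2, so the gene entered each fit through the other day, on which it was high. Usp17le, a relative of Usp17lc, was called higher at day 2.5 in wt, at 2.50 (SE 0.87, adjusted p 0.0451). It was at 0.0994 to 0.247 CPM in wt at day 2, so it was tested through day 2.5, the day on which it was high. Within the Zscan4 list, 3 of 6 tested were lower at day 2 in het, which were Zscan4d, Zscan4e and Zscan4-ps3, the last at -1.98 (SE 0.67, adjusted p 0.0204), and 0 of 3 in wt, against 28.1% of all genes in het and 21.9% in wt. Zscan4e and Zscan4-ps3 did not reach the level of the filter in all het lines at day 2 and entered the fit through day 0. This count too cannot be read against the shares. Zscan4e, like Zscan4f, had no read in any het line at day 2, after 1.09 ± 0.224 CPM at day 0 and before 0.852 ± 0.454 CPM at day 2.5 (SD, n = 3), and both steps were called in het. It entered both fits through the day other than day 2, on which it was high. Its unique share is 12.6%.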

How the data were processed

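The authors trimmed 75-base single-end reads with Trim Galore (0.4.4 in the submitters' processing notes) and Cutadapt, aligned them with HISAT2 (2.0.5) to GRCm38.p6 and quantified genes in SeqMonk. The count table they deposited gives raw reads per gene and library without normalization, and was used as it stands. Its 8 columns of group means and the deposited log2 RPKM tables of other genes, which hold no member, were left aside. Each of the 24 per-sample columns matched a title. Whether each library was stranded is not given in the sources used here. The line is the replicate, and a number shared by a wt and a het line names separate lines.

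Tests used edgeR 4.0.16 in R 4.3.3 (TMM factors, filterByExpr by group, quasi-likelihood test), always over all genes that passed the filter. The threshold for a call was 0.05 after Benjamini-Hochberg adjustment. Fits held the groups of one comparison, namely het against wt on each day or in counts summed per line, consecutive days within a genotype, and the interaction of genotype with each step. Same-numbered libraries of a genotype are 1 cell line on different days, so the line pairs the days by design. The correlation of their deviations from group means was -0.08 to 0.36 over 18 pairs. Alternatives were DESeq2 1.42.0 size factors or Wald test, library totals alone, no filter beyond 1 count, one fit of all 24 libraries, the line as a replicate block and leaving out each line. Log2 CPM for correlations used a prior count of 2.

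The members and the lists of related genes were chosen with earlier results of these data known. Beyond the members and Smchd1, genes were named by rule. From each list these were up to 3 with the smallest adjusted p among those called in a comparison and the one with the highest mean CPM, and for likeness the 5 genes of at least 1 CPM with the highest Pearson's r. The lists were Zscan4 genes and pseudogenes, other 2-cell-stage genes, activators, repressors and germline genes, beside cell type markers. In a run tested on simulated data that copied the wt day 2 and day 0 libraries (15535 genes, dispersion 0.04), the test called 97 of 100 genes changed 4-fold, 57 of 100 changed 2-fold and 4 others. The changed genes were drawn from all that passed the filter, so these rates do not hold for genes as sparse as 7 of the members. Sequences came from GENCODE vM21 transcripts and the RefSeq promoter table. Plots were made in matplotlib 3.10.9 (Python 3.11.15).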

Additional observations from a re-analysis of the deposited data

Results flagged for a closer look

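Zscan4c moved in opposite directions between day 2.5 and day 3 in every line of the 2 genotypes. In wt lines 1, 2 and 3 it went from 0.990, 0.414 and 0.765 CPM to 0.689, 0.181 and 0.609 CPM, lower in 3 of 3, and in het lines it went from 0.688, 0.365 and 0.858 CPM to 0.819, 0.660 and 1.53 CPM, higher in 3 of 3. The counts behind these values were 18, 3 and 13 and then 15, 3 and 10 in wt, and 14, 7 and 17 and then 16, 14 and 31 in het. For wt line 2 the count was 3 on both days, at the floor, so its lower level rests on the library totals alone. The interaction of genotype and day by edgeR was 1.23 (SE 0.90, adjusted p 0.999), so the difference did not pass the test, and over 12 alternatives it stayed positive in 12 and its adjusted p was 0.791 to 1. Only 21.4% of the 75-base stretches of Zscan4c are unique to it. With 9 members looked at over 3 steps, this was the single case of such an opposition, and its frequency among all genes was not worked out.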

How the results depend on the processing

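Of 117 fold changes of called members recomputed under the alternatives, 107 stayed past the threshold in the same direction, 10 kept the direction without passing it and 0 turned. The 10 were 5 of Usp17lc in wt and 3 of Tcstv1 and 1 of Zscan4d in het, all from day 0 to day 2, and 1 of Dppa4 in wt from day 2.5 to day 3. Leaving out one line, the count of members called ranged from 2 to 5 for day 2 against day 0 in het (4 with all lines), with 2 without het line 3, and it was 2 each time in wt (3 with all lines). It ranged from 1 to 2 for day 3 against day 2.5 in wt, with 1 without wt line 2. The other counts of called members did not move by over 1.5 times under any alternative. Comparisons of het with wt and interactions had 0 members called under each alternative. With the line as a replicate block, day 2 against day 0 in wt had 2 called members, Usp17lc being lost (adjusted p 0.0564), and the block changed no other call. Its use between wt and het lines pairs lines by number only. Of 981 values of members that were tested and not called, 78 had the other sign under an alternative and 0 reached an adjusted p under 0.05. Of 83 values of members that had not passed the filter, 4 did, all of Zscan4f for day 2 against day 0 in het. DESeq2 gave no adjusted p to some sparse members, 7 of 9 at day 0. Depth limits the sparse members most. A count of 4 has an exact 95% Poisson interval of 1.09 to 10.2, and counts of 4 or fewer occurred in each of the 7 sparse members, from 1 library of 24 for Zscan4d and Usp17lc to 19 for Zscan4f.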

Other observations

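Genes of the germline that are silenced by DNA methylation, read from a list of 10 that were all detected, were called in both directions. At day 2 against day 0, 3 were higher and 2 lower in wt and 5 were higher and 2 lower in het, by edgeR, where 22.4% of all genes were higher and 21.9% lower in wt and 28% and 28.1% in het. Sycp3, which encodes a protein of the synaptonemal complex and had the highest mean of the list, went from 9.29 ± 0.433 to 90.7 ± 23.9 CPM in wt and from 13.4 ± 1.37 to 130.1 ± 13.6 CPM in het (SD, n = 3), with log2 fold changes of 3.29 (SE 0.20, adjusted p 3.04e-08) and 3.30 (SE 0.11, adjusted p 5.81e-12). Tdrkh, of the piRNA pathway, was called higher in both genotypes at 2.44 (SE 0.23, adjusted p 1.64e-06) and 2.59 (SE 0.24, adjusted p 2.78e-07), as was Mael at 1.60 (SE 0.32, adjusted p 0.00103) and 1.62 (SE 0.14, adjusted p 1.3e-07), and Syce1, another gene of the synaptonemal complex, was lower in both at -1.48 (SE 0.20, adjusted p 4.47e-05) and -1.37 (SE 0.19, adjusted p 1.61e-05). From day 2 to day 2.5, Sycp3 was lower at -0.99 (SE 0.22, adjusted p 0.0042) in wt and -1.70 (SE 0.13, adjusted p 2.5e-07) in het, while Dazl, which encodes an RNA-binding protein of germ cells, was higher at 0.91 (SE 0.19, adjusted p 0.00363) in wt and 1.14 (SE 0.20, adjusted p 0.000352) in het. From day 2.5 to day 3, 5 were lower in each genotype and 0 were higher in wt and 1 in het (8.99% and 13.8% of all genes were higher), the lower calls standing against 10.1% of all genes in wt and 16% in het, with Dazl at -1.75 (SE 0.18, adjusted p 0.000468) in wt and -1.92 (SE 0.29, adjusted p 0.000752) in het. None of the 10 was called between het and wt on any day, and at an unadjusted p under 0.05 there were 1 of 10, 1 of 10, 2 of 10 and 0 of 9 tested on days 0, 2, 2.5 and 3, against 10.9%, 10.2%, 5.27% and 9.13% of all genes.

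The summed level of formative and primed markers, such as Otx2 and Dnmt3b, was 990 to 1186 CPM at day 0 and 1248 to 1452 CPM at day 2 over the 6 lines. It was 372 to 501 CPM at day 2.5 and 164 to 286 CPM at day 3.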
